A study of Mus musculus with 6 samples.

Results

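Enterocytes take up long-chain fatty acids and monoacylglycerol from digested fat, bind and activate the fatty acids, and join them again into triglyceride. The genes described here are 10 genes of that route, chosen by name: Cd36 and Slc27a4 (uptake), Fabp1 and Fabp2 (binding inside the cell), Acsl5 (activation to acyl-CoA), Mogat2, Dgat1, Dgat2 and Agpat2 (acylation) and Plin2 (coat of the lipid droplet). All 10 were among the 23390 genes of the deposited count table and all 10 were tested. The libraries came from cells of the mouse small intestine sorted as viable, CD45- (no leukocyte marker) and EpCAM+ (an epithelial marker), on a C57BL/6 background. The 3 Vil.Cre Maf.flox libraries came from mice in which Cre under the villin promoter, which is active in intestinal epithelium, deletes floxed Maf, and the 3 Maf.flox libraries from floxed controls without Cre. All 6 libraries thus carry the floxed allele, and no group carries Cre alone, so the deletion and Cre cannot be told apart. The labels give no age, sex, diet or segment of the small intestine, and do not say whether each library was a separate mouse. Both sexes were read from the counts within each genotype (given below with the depths), so each group held at least 2 mice, and the p-values rest on the spread among the libraries.

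As background, dietary triglyceride is split in the gut lumen, and the products are re-esterified at the endoplasmic reticulum of the enterocyte. Most of this flux uses the monoacylglycerol pathway, in which monoacylglycerol acyltransferase (Mogat2) makes diacylglycerol and the diacylglycerol acyltransferases Dgat1 and Dgat2 make triglyceride. The glycerol phosphate pathway, with Agpat2, builds diacylglycerol from glycerol 3-phosphate. The product leaves in chylomicrons or is held for a time in droplets.

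The windows before the transcription starts of the 3 genes with the largest differences are shown, because c-Maf is a basic leucine zipper factor whose recognition element is built on the core TGCTGA. RefSeq (GRCm38.p6) gave 250 bases upstream of the start for 7 of the 10 genes; Mogat2, Dgat1 and Dgat2 were not matched. Each sequence reads 5′ to 3′ on the gene's strand, which is the plus strand for all 3, with that core in capitals. The windows are chr3:122894822-122895071 for Fabp2, chr19:55253119-55253368 for Acsl5, which lies within an intron of the GENCODE M21 gene, and chr6:71199629-71199826 for Fabp1, cut short where the GENCODE exon begins.
Fabp2: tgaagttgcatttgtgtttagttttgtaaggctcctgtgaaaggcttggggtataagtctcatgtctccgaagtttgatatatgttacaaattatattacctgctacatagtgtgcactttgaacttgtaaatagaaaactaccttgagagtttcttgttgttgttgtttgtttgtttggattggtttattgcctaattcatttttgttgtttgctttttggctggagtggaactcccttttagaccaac
Acsl5: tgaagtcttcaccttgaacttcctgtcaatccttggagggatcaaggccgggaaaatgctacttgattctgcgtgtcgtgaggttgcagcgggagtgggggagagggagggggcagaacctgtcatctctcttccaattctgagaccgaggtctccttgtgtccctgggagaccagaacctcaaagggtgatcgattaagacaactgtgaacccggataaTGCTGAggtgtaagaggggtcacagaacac
Fabp1: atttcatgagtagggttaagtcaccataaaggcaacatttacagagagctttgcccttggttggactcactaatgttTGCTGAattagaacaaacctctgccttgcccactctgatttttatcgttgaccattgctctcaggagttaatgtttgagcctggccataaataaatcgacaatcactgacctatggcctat
The core, searched on both strands as TGCTGA, stood 30 to 25 bases before the RefSeq start of Acsl5, 173 to 168 before that of Fabp1, 11 to 6 before that of Cd36 and, on the opposite strand, 97 to 92 before that of Slc27a4. That is 4 of 7 windows, against 15.8% of 27025 RefSeq promoters of the same length. The Cd36 window, chr5:17835897-17836146, lies within an intron of the GENCODE M21 gene, as that of Acsl5 does. The letters TGCTGA were not in the Fabp2 window, nor in those of Agpat2 and Plin2. The longer stretch TGCTGACTC, an HNF4 site spelled CAAAGTCCA and the direct repeat core CAAAGGTCA were in none of the 7 windows and in 0.326%, 0.381% and 0.407% of all promoters. The letters TATAAA were 30 to 25 bases before the RefSeq start of Fabp1, outside the stretch printed, and in 13.0% of all promoters. A match describes letters in a window and is not evidence of binding.

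Total counts were 17464355 to 21631476 in Vil.Cre Maf.flox and 19842751 to 24802525 in Maf.flox, so that 1 CPM (counts scaled to library size, with TMM factors) stood for 17.03 to 23.78 counts. Maf itself had 16, 1 and 1 counts in Vil.Cre Maf.flox replicates 1, 2 and 3, against 9398, 5615 and 3893 in Maf.flox replicates 1, 2 and 3, as the labels require (log2 fold change -9.89, adjusted p = 0.0133). Its adjusted p was 0.0563 at most with 1 library left out. Over 13740 genes tested, 49 (0.357%) were called lower at an adjusted p under 0.05 in edgeR's quasi-likelihood fit (p adjusted by Benjamini-Hochberg), and 26 higher. Counts of Xist and Y-linked genes gave 2 males and 1 female (replicate 3) in Vil.Cre Maf.flox, and 1 male (replicate 1) and 2 females in Maf.flox. The libraries within a group were not alike: Maf.flox replicate 3 had the lowest control value for 9 of the 10 genes, and Vil.Cre Maf.flox replicate 3 the lowest of all 6 libraries for 7.

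None of the 10 genes was called over all genes, and all 10 had a log2 fold change below 0 (Vil.Cre Maf.flox over Maf.flox). Their median was -0.52, while the median over all genes was -0.01 with 51.56% below 0. The largest difference was in Fabp2, which was 4.31-fold lower in Vil.Cre Maf.flox, followed by Fabp1 at 2.76-fold and Acsl5 at 1.84-fold lower. The acyltransferases Mogat2, Dgat1 and Agpat2 lay closest to 0. Unadjusted p under 0.05 was found for 5 of 10 (Fabp1, Fabp2, Acsl5, Dgat2 and Plin2), beside 9.25% of all genes lower at that level. Every Vil.Cre Maf.flox library lay below every Maf.flox library for 4 of 10 (Fabp1, Fabp2, Acsl5 and Plin2), beside 10.5% of all genes. At an adjusted p under 0.1, Fabp2 and Acsl5 passed, beside 1.69% of all genes lower.

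**Figure D1:**
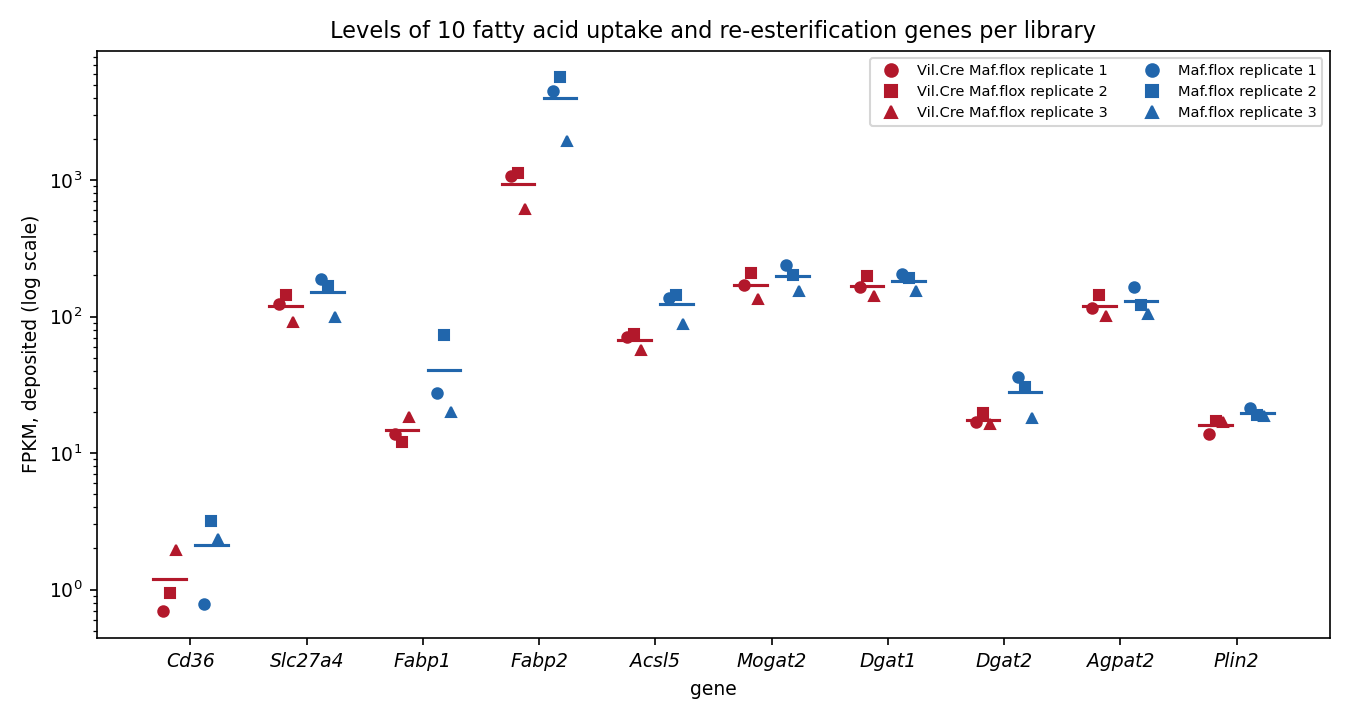
Deposited FPKM (log scale) of the 10 genes in each library, with Vil.Cre Maf.flox in red left of Maf.flox in blue; marker shapes stand for replicates and bars for group means. Fabp2 stands above the other genes in both groups, Cd36 is the lowest, and the red and blue points of Fabp1, Fabp2, Acsl5 and Plin2 do not overlap.

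Of the uptake genes, Slc27a4 encodes FATP4, a fatty acid transport protein with acyl-CoA synthetase activity, and Cd36 a scavenger receptor that binds long-chain fatty acids. Slc27a4 (ENSMUSG00000059316, GRCm38 chromosome 2, 29802634 to 29817522, plus strand) had 544.7, 634.7 and 397.3 CPM in the Vil.Cre Maf.flox libraries, against 829.8, 748.0 and 438.3 CPM in the Maf.flox libraries. The groups overlapped because Maf.flox replicate 3 lay among the Vil.Cre Maf.flox libraries. Its log2 fold change of -0.35 (SE 0.262) did not pass (adjusted p = 0.558, edgeR), and it was -0.54 with a sex term. Cd36 (ENSMUSG00000002944, chromosome 5, 17781690 to 17888801, minus strand) was the lowest of the 10 genes, with 2.49, 3.41 and 6.89 CPM in Vil.Cre Maf.flox and 2.77, 11.6 and 8.44 CPM in Maf.flox. Its log2 fold change was -0.82 with an SE of 0.564 (adjusted p = 0.532, edgeR), and Maf.flox replicate 1 was as low as the Vil.Cre Maf.flox libraries. The 3 male libraries of both genotypes were the 3 lowest, and with a sex term the genotype log2 fold change was -0.26. Cd36 is also a gene of macrophages, platelets, adipocytes and capillary endothelium. Summed markers of macrophages were 0.941 to 3.17 CPM in Vil.Cre Maf.flox and 2.03 to 2.37 CPM in Maf.flox, with Adgre1 and Cd163 not in the table used here. Endothelial markers summed to 0.171 to 0.705 CPM in Vil.Cre Maf.flox and 0.208 to 0.332 CPM in Maf.flox, and platelet markers to 0.812 to 1.11 CPM in Vil.Cre Maf.flox and 0.427 to 1.09 CPM in Maf.flox. Of the adipocyte markers Cidec alone had counts, at 4.54 to 4.97 CPM in Vil.Cre Maf.flox and 4.98 to 14.7 CPM in Maf.flox. Only 0.00966 CPM lay between the groups. Cidec is also in the droplet list below, so it does not measure adipocytes alone. Retn was at 0, and Adipoq, Plin1, Lep and Cfd were not in the table used here. The part of these cells in the Cd36 level was not tested.

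Fabp2 encodes the intestinal fatty acid binding protein, a cytosolic carrier of enterocytes, and Fabp1 the liver type, which enterocytes also make. Fabp2 (ENSMUSG00000023057, chromosome 3, 122895072 to 122899506, plus strand) had 1038, 1084 and 593.4 CPM in Vil.Cre Maf.flox, against 4322, 5522 and 1872 CPM in Maf.flox. The highest Vil.Cre Maf.flox library lay 787.8 CPM below the lowest Maf.flox library, and replicate 3 was the lowest of its group in both genotypes. The means were 905.2 ± 271 CPM in Vil.Cre Maf.flox and 3905 ± 1860 CPM in Maf.flox (SD, n = 3 each). On the log2 scale this was -2.11 (SE 0.419), which did not pass (adjusted p = 0.0795, edgeR). Without Maf.flox replicate 3 it was -2.44 and passed (adjusted p = 0.00311, edgeR), in a fit that called 577 of 14029 genes lower. DESeq2 on all 6 libraries gave -2.10 (adjusted p = 0.00047), where 3.47% of all genes were called lower. With each of the other libraries left out it lay between -2.24 and -1.77 and did not pass. Fabp2 passed in 3 of 14 alternative fits, the remaining pass being with a replicate block. It did not pass with a sex term (-2.33, adjusted p = 0.127, edgeR) or with limma-voom (adjusted p = 0.108). With no filter on low counts it did not pass either (adjusted p = 0.233, edgeR). The male Vil.Cre Maf.flox libraries, 1038 and 1084 CPM, were below the male Maf.flox library, 4322 CPM, and the female one, 593.4 CPM, was below the female Maf.flox libraries, 5522 and 1872 CPM. Each of these comparisons rests on a single library of a genotype, and the difference within a sex was not tested.

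Fabp1 (ENSMUSG00000054422, chromosome 6, 71199827 to 71205023, plus strand) had 7.56, 6.64 and 10.1 CPM in Vil.Cre Maf.flox, against 15.1, 41.3 and 11.1 CPM in Maf.flox. These are 149, 113 and 236 counts in Vil.Cre Maf.flox and 359, 793 and 233 counts in Maf.flox. The groups did not overlap, but only 0.953 CPM lay between Vil.Cre Maf.flox replicate 3 and Maf.flox replicate 3. The log2 fold change of -1.46 (SE 0.508) did not pass (adjusted p = 0.231, edgeR), and it was -0.68 without Maf.flox replicate 2, the library at 41.3 CPM. Another family member, Fabp6, the ileal bile acid binding protein, was at 7396, 11612 and 5612 CPM in Vil.Cre Maf.flox and 9528, 5906 and 5199 CPM in Maf.flox. It did not share the difference of Fabp2 and Fabp1 (log2 fold change 0.25, SE 0.317, adjusted p = 0.751, edgeR). Per length, the ratio of Fabp2 to Fabp6 was 0.0562 ± 0.0121 in Vil.Cre Maf.flox and 0.289 ± 0.153 in Maf.flox (SD, n = 3 each), and the 2 groups did not overlap; this ratio was not tested.

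Acsl5 encodes the long-chain acyl-CoA synthetase that is abundant in intestinal mucosa. Acsl5 (ENSMUSG00000024981, chromosome 19, 55251938 to 55297720, plus strand) had 344.6, 360.7 and 274.8 CPM in Vil.Cre Maf.flox, against 661.1, 705.0 and 434.2 CPM in Maf.flox. Every Vil.Cre Maf.flox library was lower, with 73.5 CPM between the groups, and replicate 3 was again the lowest of each group. The log2 fold change of -0.88 (SE 0.196) missed the threshold on all 6 libraries (adjusted p = 0.0867, edgeR). It passed in 4 of 14 alternative fits. These were without Maf.flox replicate 3 (-1.06, adjusted p = 0.00609, edgeR), with DESeq2 (-0.87, adjusted p = 0.000746), with no filter on low counts (-0.86, adjusted p = 0.0199, edgeR) and with a replicate block. The fit without Maf.flox replicate 3 called 577 of 14029 genes lower. With each of the other libraries left out, Acsl5 lay between -0.94 and -0.74 and did not pass (adjusted p 0.141 to 0.328, edgeR). It did not pass with limma-voom or a sex term either. Of its exon bases, 8.31% overlap Zdhhc6 on the opposite strand. The sources used here do not state whether counting used strand, so reads of the 2 genes in that stretch cannot be told apart.

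Mogat2 (ENSMUSG00000052396) and Dgat2 (ENSMUSG00000030747) are neighbours on the minus strand of chromosome 7, at 99219084 to 99238619 and 99153658 to 99182719, with 36364 bases and 0 protein-coding genes between them. Mogat2 had 314.0, 380.9 and 245.9 CPM in Vil.Cre Maf.flox, against 432.9, 372.5 and 283.5 CPM in Maf.flox. The groups overlapped, and the log2 fold change stood at -0.21 (SE 0.198, adjusted p = 0.657, edgeR) and at -0.37 with a sex term. Dgat2 had 51.5, 60.6 and 49.9 CPM in Vil.Cre Maf.flox, against 110.3, 95.3 and 56.0 CPM in Maf.flox. Maf.flox replicate 3 lay between the Vil.Cre Maf.flox libraries, and 2 control libraries stood above all others. The log2 fold change of Dgat2 was -0.69 (SE 0.232, adjusted p = 0.207, edgeR), and without Maf.flox replicate 3 it was -0.93 and passed (adjusted p = 0.00622). That was the only 1 of 14 alternative fits in which Dgat2 passed, and it called 577 of 14029 genes lower. Of the exon bases of Mogat2, 3.0% overlap the antisense gene Gm45012.

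Dgat1, the other diacylglycerol acyltransferase, is unrelated to Dgat2 in sequence. Dgat1 (ENSMUSG00000022555, chromosome 15, 76502015 to 76511953, minus strand) had 499.8, 609.3 and 431.3 CPM in Vil.Cre Maf.flox, against 619.4, 589.2 and 475.7 CPM in Maf.flox. The groups overlapped over most of their range, and the log2 fold change stood at -0.13 (SE 0.161, adjusted p = 0.752, edgeR) and at -0.23 with a sex term. Per length, the ratio of Dgat2 to Dgat1 was 0.102, 0.0986 and 0.115 in Vil.Cre Maf.flox, against 0.176, 0.160 and 0.117 in Maf.flox. The groups did not overlap, but Vil.Cre Maf.flox replicate 3 and Maf.flox replicate 3 nearly met, and this ratio was not tested. Per length, Dgat1 was above Dgat2 in all 6 libraries.

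Agpat2 acylates lysophosphatidic acid to phosphatidic acid in the glycerol phosphate pathway. Agpat2 (ENSMUSG00000026922, chromosome 2, 26593057 to 26604417, minus strand) had 243.6, 309.1 and 214.3 CPM in Vil.Cre Maf.flox, against 350.3, 263.1 and 224.6 CPM in Maf.flox. The groups overlapped, the log2 fold change stood at -0.13 (SE 0.191, adjusted p = 0.795, edgeR), and it was -0.26 with a sex term and 0.08 without Maf.flox replicate 1. Of its exon bases, 3.0% overlap Egfl7 on the opposite strand. Plin2 (ENSMUSG00000028494, chromosome 4, 86648386 to 86670060, minus strand), which encodes a coat protein of lipid droplets, had 47.9, 60.7 and 58.9 CPM in Vil.Cre Maf.flox, against 74.8, 67.5 and 66.4 CPM in Maf.flox. Its groups did not overlap but differed by little. Its log2 fold change stood at -0.32 (SE 0.116, adjusted p = 0.224, edgeR).

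**Figure D2:**
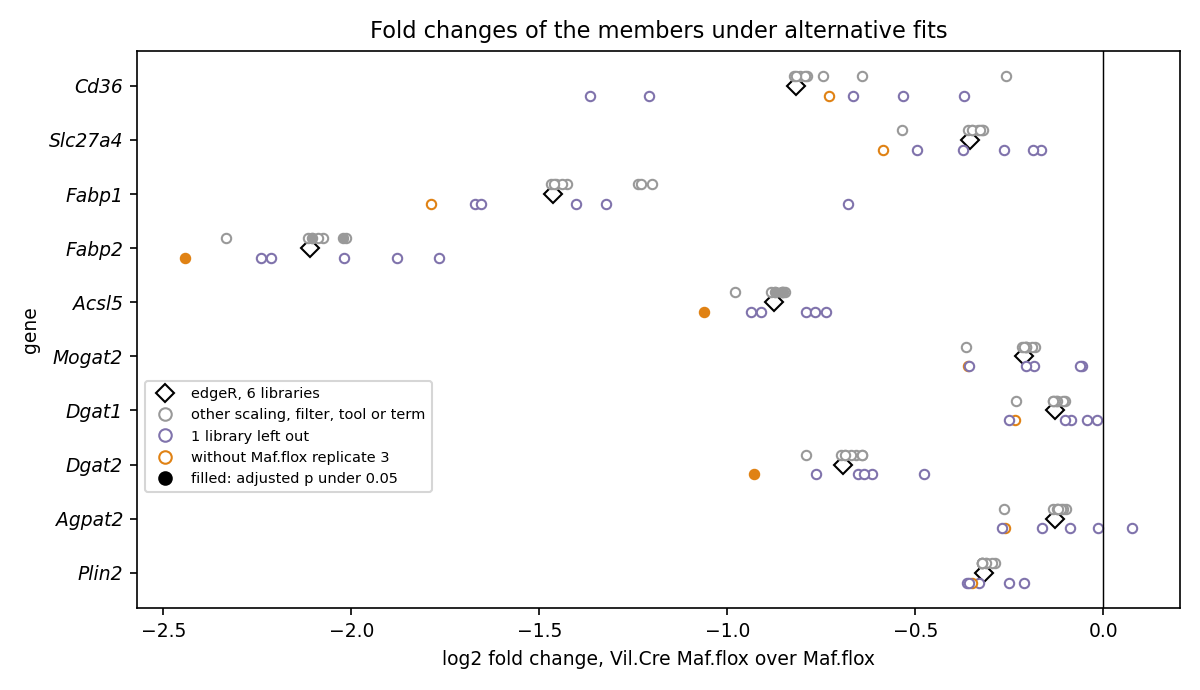
Log2 fold change (Vil.Cre Maf.flox over Maf.flox) of each gene in the fit on all 6 libraries (diamonds) and under alternatives (circles; filled where the adjusted p was under 0.05). The filled circles belong to Fabp2, Acsl5 and Dgat2, the last only without Maf.flox replicate 3 (-0.93), and Agpat2 has the only circle right of 0 (0.08).

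The order of levels between genes was read from FPKM, which is per length. In Vil.Cre Maf.flox it ran Fabp2 (939.6 ± 279), Mogat2 (171.2 ± 36.2), Dgat1 (168.4 ± 28.8), Agpat2 (120.3 ± 22.4), Slc27a4 (119.4 ± 26.8), Acsl5 (67.3 ± 9.18), Dgat2 (17.6 ± 1.81), Plin2 (15.9 ± 1.96), Fabp1 (14.7 ± 3.31) and Cd36 (1.19 ± 0.654; FPKM, SD, n = 3 each). In Maf.flox it ran Fabp2 (4028 ± 1909), Mogat2 (197.1 ± 42.1), Dgat1 (182.9 ± 25.6), Slc27a4 (151.8 ± 47.3), Agpat2 (130.7 ± 31.3), Acsl5 (122.8 ± 29.8), Fabp1 (40.3 ± 29.2), Dgat2 (28.2 ± 9.21), Plin2 (19.7 ± 1.47) and Cd36 (2.10 ± 1.22). Fabp2 stood clear of the next gene in both genotypes, and the genes from Mogat2 to Slc27a4 in Vil.Cre Maf.flox, and from Mogat2 to Acsl5 in Maf.flox, overlapped with their neighbours. Dgat2, Plin2 and Fabp1 overlapped with one another in both genotypes, as neighbours in the order. Acsl5 was clear of Slc27a4 above it in Vil.Cre Maf.flox but not of Agpat2 above it in Maf.flox. By mean FPKM over the 6 libraries Fabp2 was gene 17 of all genes and Cd36 gene 9975.

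Because sorted epithelium is a mixture, fewer cells of a type and less RNA per cell cannot be told apart in these bulk libraries. Summed enterocyte markers were 6204 to 10404 CPM in Vil.Cre Maf.flox and 7875 to 16350 CPM in Maf.flox, the lowest library of each group being its replicate 3. Vil1, which encodes villin, a brush border protein, was at 2055, 2436 and 1741 CPM in Vil.Cre Maf.flox and 3093, 2969 and 2091 CPM in Maf.flox (log2 fold change -0.39, adjusted p = 0.373, edgeR). Each gene was therefore also divided by Vil1 of the same library, a description chosen after seeing the data and not tested. Fabp2 per Vil1 was 0.505, 0.445 and 0.341 in Vil.Cre Maf.flox, against 1.40, 1.86 and 0.895 in Maf.flox, and the ratio of the means was 0.311. Acsl5 per Vil1 was 0.168, 0.148 and 0.158 in Vil.Cre Maf.flox, against 0.214, 0.237 and 0.208 in Maf.flox, a ratio of means of 0.719. For both, the groups still did not overlap, and Maf.flox replicate 3 was closer to the other controls for Acsl5 than in CPM. Mogat2, Dgat1 and Agpat2 per Vil1 were higher in every Vil.Cre Maf.flox library than in every Maf.flox library, with ratios of means of 1.12, 1.18 and 1.19. Their direction thus depends on the scale, since in CPM all 3 lay below 0 and overlapped. Vil1 was at -0.39 while the median over all genes was -0.01, so a gene unchanged in CPM also rises per Vil1. The share of all genes higher on this scale was not counted, so the rise is not a result about these 3 genes. Slc27a4 and Plin2 came to 1.03 and 1.04, Dgat2 to 0.831, Cd36 to 0.742 and Fabp1 to 0.507, each with overlapping groups.

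**Figure D3:**
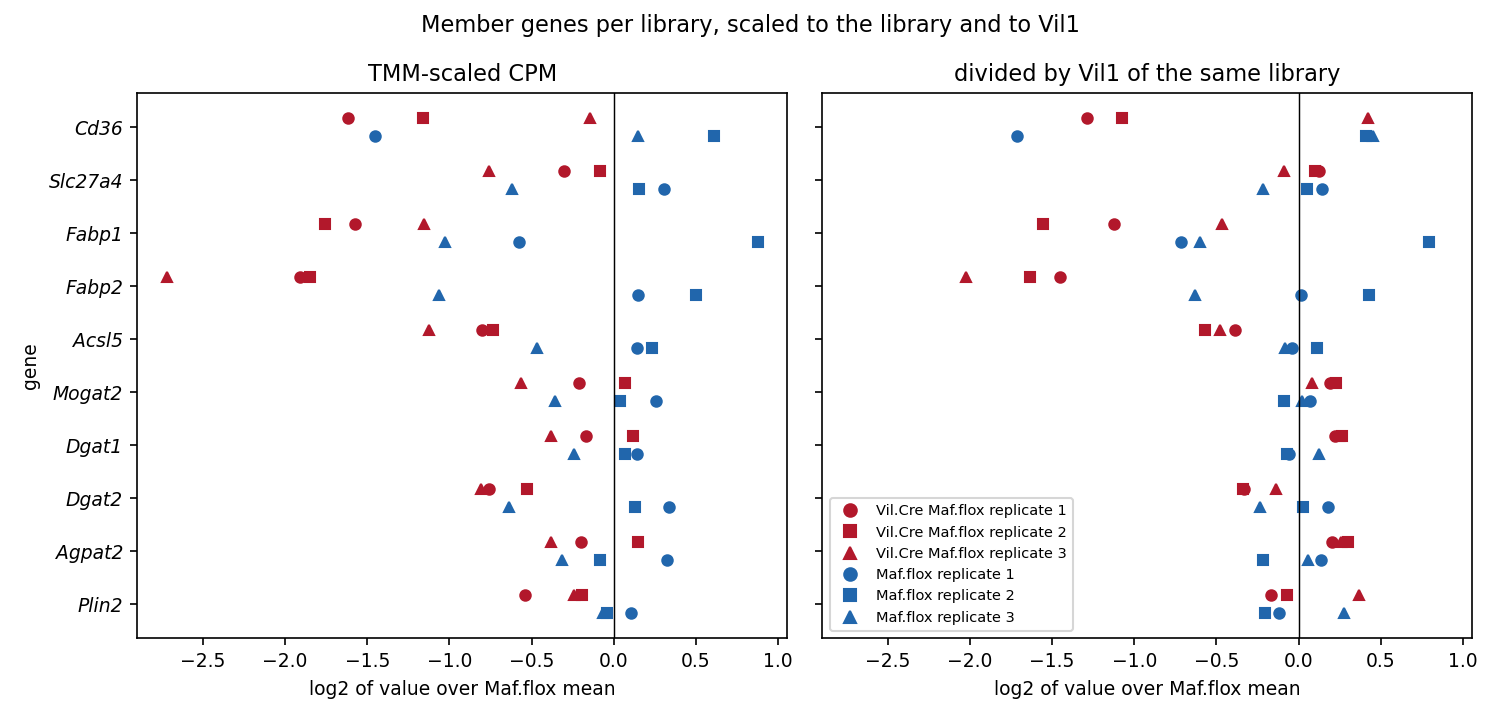
Each library's value as log2 over the Maf.flox mean, in TMM-scaled CPM (left) and after division by Vil1 of the same library (right), with Vil.Cre Maf.flox (red) drawn above Maf.flox (blue). Fabp2 and Acsl5 stay apart in both panels, while Mogat2, Dgat1 and Agpat2 overlap in the left panel and have every red point above the blue values in the right panel.

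Summed levels of markers of other cells in the sort overlapped between the groups for most types. Pan-epithelial markers were at 9613 to 12248 CPM in Vil.Cre Maf.flox and 9922 to 11143 CPM in Maf.flox, so the sorted cells carried the epithelial genes of their label. Leukocyte markers, mostly Lcp1, were at 14.8 to 18.9 CPM in Vil.Cre Maf.flox and 14.2 to 23.4 CPM in Maf.flox. Paneth markers were at 6142 to 8571 CPM in Vil.Cre Maf.flox and 4330 to 25148 CPM in Maf.flox. The highest Paneth level was that of Maf.flox replicate 3, the control with the lowest values of 9 of the 10 lipid genes, and its part in those values was not tested. Goblet markers were at 12429 to 23305 CPM in Vil.Cre Maf.flox and 12265 to 27425 CPM in Maf.flox, and stem and cycling markers at 1823 to 2568 CPM in Vil.Cre Maf.flox and 1968 to 2861 CPM in Maf.flox. Enteroendocrine markers were at 194.0 to 345.9 CPM in Vil.Cre Maf.flox and 205.3 to 617.3 CPM in Maf.flox. Tuft markers did not overlap, at 11.7 to 12.9 CPM in Vil.Cre Maf.flox and 13.7 to 54.3 CPM in Maf.flox. Neither did the summed markers of proximal small intestine, at 120.9 to 156.9 CPM in Vil.Cre Maf.flox and 96.1 to 113.5 CPM in Maf.flox. That sum was higher through Slc40a1 alone (72.3 ± 19.0 CPM in Vil.Cre Maf.flox and 35.0 ± 6.18 CPM in Maf.flox; SD, n = 3 each), while Gata4, Cybrd1 and Onecut2 had lower means in Vil.Cre Maf.flox with overlapping groups. The distal markers, mostly Fabp6, were at 5908 to 12009 CPM in Vil.Cre Maf.flox and 5505 to 10024 CPM in Maf.flox. The part of these cells in the values of the 10 genes was not tested. Fibroblast and smooth muscle markers were at 0.625 CPM or less in every library and erythroid markers at 10.05 CPM or less. The adipocyte sum is Cidec alone, as given beside Cd36, and does not measure adipocytes alone. Its highest Vil.Cre Maf.flox library lay only 0.00966 CPM below its lowest Maf.flox library. No marker gene of these lists was called over all genes.

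Around the 10 genes, 59 further genes of the same routes were listed by role, of which 57 were in the table and 49 were tested. Of these 1, Gk, was called lower and 0 higher, beside 0.357% of all genes called lower. Below 0 lay 31 (63.27%), beside 51.56% of all genes, and their median log2 fold change was -0.10. Unadjusted p under 0.05 (edgeR) was found for 12 lower and 5 higher. Over all genes it was found for 9.25% lower, and for 977 of 13740 higher. Gk encodes glycerol kinase, which makes glycerol 3-phosphate, and it fell to 43.9, 60.6 and 56.0 CPM in Vil.Cre Maf.flox, against 199.3, 222.7 and 128.5 CPM in Maf.flox. The groups stood far apart, with a log2 fold change of -1.78 (SE 0.217, adjusted p = 0.025, edgeR). The call was kept in 8 of 14 alternative fits: it was lost with a sex term (adjusted p = 0.0697) and without Maf.flox replicate 1 or 2 or Vil.Cre Maf.flox replicate 1, 2 or 3 (adjusted p up to 0.109), while its log2 fold change stayed between -1.98 and -1.61.

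The counts per list that follow leave out the 10 genes. Besides Gk, 11 of 12 glycerol phosphate pathway genes were tested, with 6 below 0, 5 above 0, 0 called and a median of -0.09. Gpat3, a glycerol phosphate acyltransferase, had a log2 fold change of -0.87 (adjusted p = 0.118), Agpat4, a relative of Agpat2, one of 0.85 (adjusted p = 0.0721) and the phosphatidate phosphatase Lpin1 one of 0.64 (adjusted p = 0.155, all by edgeR). Agpat4 was at 64.5, 50.7 and 49.0 CPM in Vil.Cre Maf.flox, against 25.6, 28.0 and 37.7 CPM in Maf.flox, higher in every library. In the uptake and binding list, 8 of 8 were tested, 3 lay below 0, 0 were called and the median was 0.12, above 0 unlike the 4 genes of that role described above. Slc27a2, a very-long-chain acyl-CoA synthetase and transporter, was at -0.42, the sterol carrier Scp2 at -0.41 and Got2, a mitochondrial aminotransferase also known as a fatty acid binding protein of the plasma membrane, at 0.36. Of the activation list 5 of 6 were tested, with 3 below 0, 0 called and a median of -0.02. Acsl1, another long-chain acyl-CoA synthetase, was at -0.23, Acsm3, a medium-chain one, at -0.38 and Acss2, which activates acetate, at -0.02. Of the monoacylglycerol and final acylation list the only other gene tested was Soat2, which esterifies cholesterol, at 0.05.

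Of the droplet list, 5 of 10 were tested, with 4 below 0, 0 called and a median of -0.18. Cidec, which promotes droplet fusion, was at 4.97, 4.58 and 4.54 CPM in Vil.Cre Maf.flox, against 14.7, 14.3 and 4.98 CPM in Maf.flox (log2 fold change -1.27, adjusted p = 0.170, edgeR). Maf.flox replicate 3 was close to the Vil.Cre Maf.flox libraries and the other controls were well above. Plin3, another coat protein, was at -0.31 and Fitm2, which acts in droplet formation, at -0.18. All 6 tested genes of the triglyceride hydrolysis list (of 8) lay below 0, with 0 called and a median of -0.35. The lysosomal acid lipase Lipa was at -1.22 (adjusted p = 0.216), hormone-sensitive lipase, Lipe, at -0.91 (adjusted p = 0.111) and the carboxylesterase Ces2e at -0.47 (adjusted p = 0.346, all by edgeR). The 12 regulators had 8 genes below 0, 0 called and a median of -0.05. Among them Creb3l3, a membrane-bound transcription factor of liver and gut lipid genes, had 13.9, 9.04 and 13.9 CPM in Vil.Cre Maf.flox, against 102.7, 115.5 and 39.5 CPM in Maf.flox. All 3 Vil.Cre Maf.flox libraries were lower, with a log2 fold change of -2.80 (SE 0.440, adjusted p = 0.0674, edgeR), and without Maf.flox replicate 3 it was -3.14 and passed (adjusted p = 0.00024). Creb3l3 passed in 2 of 14 alternative fits, and the fit without Maf.flox replicate 3 called 577 of 14029 genes lower. The nuclear receptors Hnf4g and Ppard were at -0.44 and 0.32 and were not called.

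**Figure D4:**
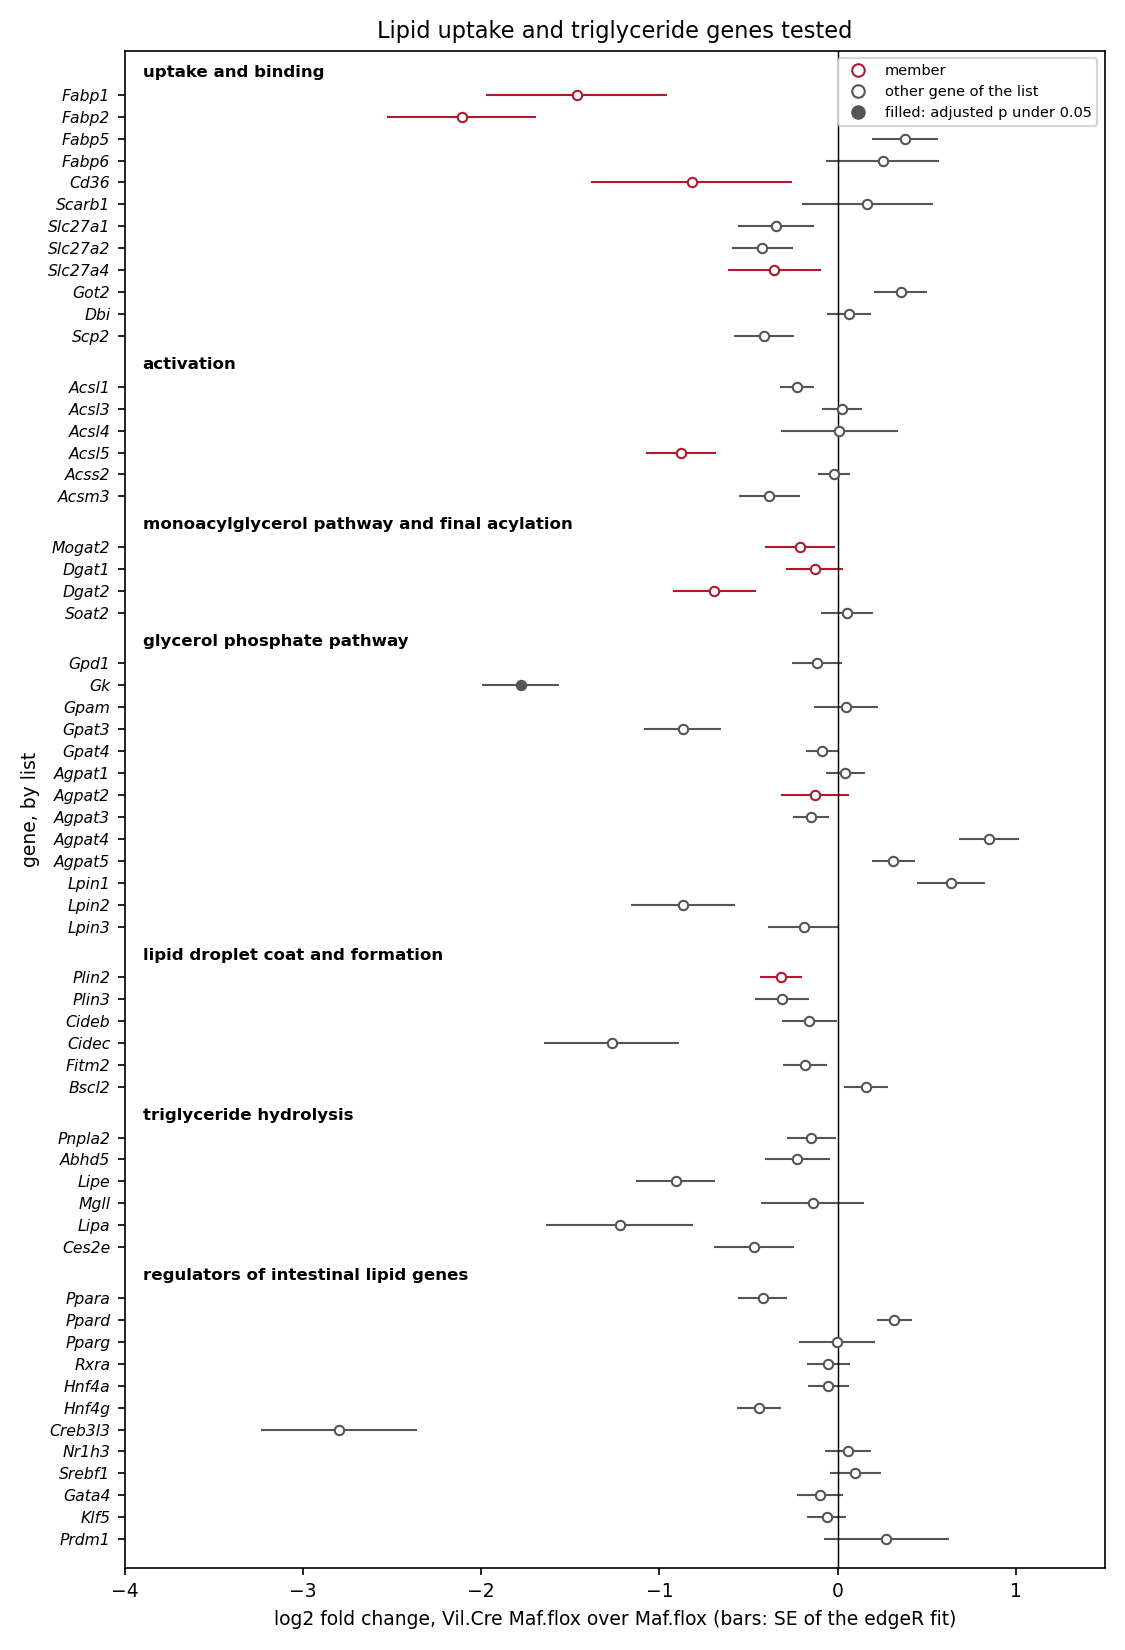
Log2 fold change (Vil.Cre Maf.flox over Maf.flox) with the SE of the edgeR fit for the tested genes of 7 lists; red marks the 10 genes, grey the others, and a filled point an adjusted p under 0.05. Gk (-1.78) has the only filled point, and Creb3l3 (-2.80) and Fabp2 (-2.11) are the farthest from 0.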

How the data were processed

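RNA was measured in 3 Vil.Cre Maf.flox and 3 Maf.flox libraries. Per the labels' protocols, poly-T beads selected mRNA and random hexamers primed the cDNA; whether the libraries kept strand was not stated. The tools named in the submitters' processing notes are featureCounts 1.5.0-p3, HISAT2 2.0.5 and DESeq2, with GRCm38 (mm10). The deposited counts are raw whole numbers per gene. The deposited FPKM values equal count over gene length and over 1 library size, 0.953 to 1.07 times the summed counts, and were not tested.

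Counts were fitted with edgeR 4.0.16 in R 4.3.3 (filterByExpr with a least count of 10, TMM, robust quasi-likelihood F test, Benjamini-Hochberg over 13740 genes), with genotype as the only term, and the scripts were tested on simulated data. Alternatives were RLE and upper quartile factors, other filters, DESeq2 1.42.0, limma-voom (limma 3.58.1), thresholds of 0.1 and 0.01, a replicate block, a sex term and each library left out. The 10 genes, the lists and the sex term were chosen with earlier results of these data known. Named genes were the 10, Maf, the called genes of each list and its 3 others of smallest p; of the marker lists, the 2 genes of highest mean CPM; those not needed for a result are not printed, and Fabp6 and the proximal markers were named after their values were seen. No library was a copy of another: within a group the chi-square per gene between libraries was 35.2 to 133.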

Additional observations from a re-analysis of the deposited data

How the results depend on the processing

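All 10 genes kept a log2 fold change below 0 in each of 14 refits, except Agpat2 without Maf.flox replicate 1 (0.077); Cd36, Slc27a4, Fabp1, Mogat2, Dgat1, Agpat2 and Plin2 passed in none. Genes called lower among the 10 numbered 0 in the fit reported, 2 with DESeq2 (Fabp2 -2.10, Acsl5 -0.87), 2 at a threshold of 0.1, 1 with no filter (Acsl5 -0.86) and 2 with a replicate block (Fabp2 -2.02, adjusted p = 0.000695; Acsl5 -0.86, adjusted p = 0.00559), and 0 to 3 with 1 library left out, the 3 without Maf.flox replicate 3. Deviations from the group means correlated at 0.092, -0.026 and 0.269 between libraries of the same number, and some libraries were closer to another number, so the numbers were not taken as a pairing. Leaving out 1 library gave log2 fold changes of -2.44 to -1.77 for Fabp2, -1.79 to -0.68 for Fabp1, -1.36 to -0.37 for Cd36, -0.59 to -0.17 for Slc27a4, -1.06 to -0.74 for Acsl5, -0.36 to -0.06 for Mogat2, -0.25 to -0.02 for Dgat1, -0.93 to -0.48 for Dgat2, -0.27 to 0.077 for Agpat2 and -0.36 to -0.21 for Plin2, and a median of -0.66 to -0.35. Per Vil1 the values were -0.48 for Acsl5, -0.27 for Dgat2, 0.047 for Slc27a4, 0.061 for Plin2, 0.17 for Mogat2, 0.24 for Dgat1 and 0.25 for Agpat2, the last 5 with turned sign. Vil1 itself was at -0.39 in CPM, so a gene unchanged in CPM also lies above 0 on this scale. The 75 calls over all genes (26 higher, 49 lower) became 760 (283, 477) with DESeq2, 440 (132, 308) with the replicate block, 372 (140, 232) at 0.1, 365 (151, 214) with no filter, 38 (15, 23) with the sex term, 30 (12, 18) with limma-voom, 2 (1, 1) at 0.01 and 8 to 701 (4 to 124, 2 to 577) with 1 library left out, 701 without Maf.flox replicate 3; the cause was not tested. The list counts that follow, here with the 10 genes included, are to be read beside the calls over all genes of the same fit, given above. DESeq2, with 3.47% of all genes called lower, called 3 lower and 2 higher of the glycerol phosphate pathway. It called 2 lower and 1 higher regulators, 2 lower of hydrolysis and 1 lower each of uptake, activation and droplet. A threshold of 0.1, with 1.69% of all genes lower, added 1 higher of the glycerol phosphate pathway and gave 1 lower each of uptake, activation and regulators. No filter gave 1 higher of the glycerol phosphate pathway, 1 lower of activation and a hydrolysis median of -0.67. The replicate block gave 2 lower each of the glycerol phosphate pathway and hydrolysis and 1 each of uptake and activation, while the sex term and a threshold of 0.01 left 0 in the glycerol phosphate pathway. With 1 library left out, lower calls ran from 0 to 3 in the glycerol phosphate pathway, 0 to 2 in regulators and hydrolysis and 0 to 1 in uptake, activation, droplet and acylation, and higher calls from 0 to 1 in the glycerol phosphate pathway and uptake. Acss2 turned to 0.0056 with upper quartile factors (-0.047 to 0.025 with 1 library left out) and Soat2 to -0.056 with the sex term (-0.063 to 0.19 with 1 library left out). At 17.03 to 23.78 counts per CPM, Cd36 and Fabp1 rest on the fewest counts of the 10.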

Other observations

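The sexes read from Xist and Y-linked counts were not balanced between the genotypes, and Cd36 followed them: it was at 2.49 to 3.41 CPM in the 3 male libraries and at 6.89 to 11.6 CPM in the 3 female ones, which do not overlap. With genotype in the same edgeR fit its log2 difference of male over female was -1.54 (SE 0.252), and it did not pass over all genes (adjusted p = 0.159), where 8 genes did. In the same edgeR fit the male over female log2 difference was 0.44 for Agpat2 (adjusted p = 0.230), 0.45 for Mogat2 (adjusted p = 0.247) and 0.53 for Slc27a4 (adjusted p = 0.322). Their unadjusted p was 0.0378 or less, and the male and female libraries overlapped for all 3. The share of all genes at that level, or with male and female libraries apart, was not counted. These sex differences are therefore not a result about the genes described here. With the sex term the genotype log2 fold change of Cd36 was -0.26. Cd36 was singled out after its values were seen, and whether the difference belongs to sex or to single libraries was not tested.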
